A study of Mus musculus with 15 samples.

Results

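The mitochondrial ribosomal protein genes encode the proteins of the ribosome inside mitochondria, and were taken as all genes of the table with a symbol of the form Mrpl or Mrps, a number and at most 1 further letter. 78 symbols of the 18931 in the table matched, and all 78 genes had reads in every one of 15 mouse brain libraries. The libraries were made from mRNA of Kunming mice, 3 per group. The labels place every library, sham included, under MCAO (middle cerebral artery occlusion, a model of ischemic stroke). The groups are JA, UA and JU, a vehicle group and a sham group. The series title names jasminoidin (geniposide, an iridoid glycoside of gardenia fruit), ursodeoxycholic acid (a bile acid) and their combination. The labels do not spell out JA, UA and JU, and the sources used here do not give dose, time after surgery, age, sex or brain region. No label says that each library is another animal, so the spread behind the p-values, which is that between these samples, may be technical.

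As background, the mitochondrial ribosome translates the few proteins encoded by mitochondrial DNA, all of them core subunits of the respiratory chain and the ATP synthase. Its RNA comes from mitochondrial DNA, whereas all of its proteins are encoded in the nucleus, made in the cytosol and imported. Some are descended from bacterial ribosomal proteins and others were added during the evolution of mitochondria. Neurons depend heavily on oxidative phosphorylation, which in turn needs this translation system. Of the 78 genes, 51 were named for the large subunit or encode a protein now placed there, 26 belong to the small subunit, and 1, Mrps36, encodes a protein that is now known as part of the oxoglutarate dehydrogenase complex and not of the ribosome. The products of Mrps30 and Mrps18a carry small-subunit names but sit in the large subunit, and were counted with it. 46 members were classed as having a bacterial counterpart and 31 as specific to mitochondria. Mrps18a and Mrps18b were counted among the 31, although Mrps18c, of the same gene family, was counted among the 46. They lie on 17 chromosomes, with 11 members on chromosome 11 as the most on any chromosome.

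Promoter sequences are shown for the Mrps18 paralogs (Mrps18a, Mrps18b and Mrps18c, 3 genes descended from the gene of bacterial protein S18), because Mrps18c was called in 3 of the comparisons described below, and for Mrpl3 and Mrps30, both lower in vehicle libraries than in sham libraries. Each window runs 5′ to 3′ from 250 bases before to 50 bases after the RefSeq start of the gene, on GRCm38.p6. Capitals mark matches, on either strand, to the core of NRF1 (GCGCATGCG), of the ETS factors such as GABPA (CCGGAAG) or of YY1 (AAGATGGC), which are known as regulators of nuclear genes for mitochondrial proteins.
Mrps18a (chr17:46110754-46111053, plus strand): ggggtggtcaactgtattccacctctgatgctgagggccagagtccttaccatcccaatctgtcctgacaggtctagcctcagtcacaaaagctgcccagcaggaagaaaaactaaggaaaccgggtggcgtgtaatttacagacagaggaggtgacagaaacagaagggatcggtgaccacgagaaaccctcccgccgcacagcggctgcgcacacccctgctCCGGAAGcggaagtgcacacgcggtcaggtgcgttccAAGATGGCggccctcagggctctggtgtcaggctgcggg
Mrps18b (chr17:35916391-35916690, minus strand): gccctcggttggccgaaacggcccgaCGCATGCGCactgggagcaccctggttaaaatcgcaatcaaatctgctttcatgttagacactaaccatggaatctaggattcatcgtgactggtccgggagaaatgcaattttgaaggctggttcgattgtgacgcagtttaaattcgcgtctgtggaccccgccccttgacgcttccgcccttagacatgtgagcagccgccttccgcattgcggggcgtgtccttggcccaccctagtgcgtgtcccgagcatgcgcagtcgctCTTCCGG
Mrps18c (chr5:100798509-100798808, plus strand): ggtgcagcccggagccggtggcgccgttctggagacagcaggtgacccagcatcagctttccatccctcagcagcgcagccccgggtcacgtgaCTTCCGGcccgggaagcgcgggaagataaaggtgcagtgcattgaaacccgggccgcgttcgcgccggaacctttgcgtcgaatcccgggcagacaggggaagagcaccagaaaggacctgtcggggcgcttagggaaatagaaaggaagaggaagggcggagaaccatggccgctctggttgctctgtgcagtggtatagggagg
Mrpl3 (chr9:105053018-105053317, plus strand): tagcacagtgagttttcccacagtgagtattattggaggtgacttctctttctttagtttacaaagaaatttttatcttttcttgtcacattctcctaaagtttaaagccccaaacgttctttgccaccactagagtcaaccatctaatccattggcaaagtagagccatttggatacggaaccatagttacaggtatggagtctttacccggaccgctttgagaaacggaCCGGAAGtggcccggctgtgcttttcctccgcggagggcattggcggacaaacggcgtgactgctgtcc
Mrps30 (chr13:118387203-118387502, minus strand): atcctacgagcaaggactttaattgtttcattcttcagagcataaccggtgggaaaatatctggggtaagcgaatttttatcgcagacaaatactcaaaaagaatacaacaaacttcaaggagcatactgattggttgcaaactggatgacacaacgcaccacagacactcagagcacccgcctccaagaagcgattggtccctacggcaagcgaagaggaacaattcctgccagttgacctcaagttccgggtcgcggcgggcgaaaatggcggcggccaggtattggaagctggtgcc

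The Mrps18a window held the ETS letters from base -26 to -20 and the YY1 letters from base 12 to 19, counted from the start. The Mrps18b window held the NRF1 letters on the opposite strand from base -224 to -216 and the ETS letters on the opposite strand from base 44 to 50. The Mrps18c window held only the ETS letters, on the opposite strand from base -156 to -150. In the Mrpl3 window the ETS letters stood from base -19 to -13, and the Mrps30 window held none of the 3 cores. Windows were found for 69 of the 78 members, and 3 of these had more than 1 window. The ETS core was in 26 of 69 members (37.7%), against 17.6% of the 11960 tested genes with a window and 9.93% of all 27025 genes with one. The YY1 core was in 12 members (17.4%), against 4.62% of tested genes and 3.19% of all genes. The NRF1 core was in 7 members (10.1%), against 3.63% of tested genes and 1.95% of all genes. At least 1 of the 3 cores was in 38 members (55.1%), against 23.8% of tested genes, and in no member did matches to different cores overlap. These are matches of letters, with no measurement of binding. The members' windows had a median GC content of 58.0%, against 60.3% for tested genes.

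In the authors' FPKM, which scale counts by transcript length and depth and so allow genes to be compared, the members spanned 37.2-fold with a median of 21.04 FPKM. The 5 highest mean levels over 15 libraries were those of Mrps21 (a small-subunit protein, 81.5 FPKM), Mrpl12 (the stalk protein of the large subunit that also binds the mitochondrial RNA polymerase, 63.5 FPKM), Mrpl42 (58.1 FPKM), Mrps18a (53.9 FPKM) and Mrpl33 (52.6 FPKM). The 5 lowest were Mrpl14 (2.19 FPKM), Mrpl1 (a protein of the L1 stalk, 3.39 FPKM), Mrpl4 (which lines the exit tunnel, 4.61 FPKM), Mrpl15 (4.92 FPKM) and Mrpl17 (5.23 FPKM). Small-subunit members had a median of 23.3 FPKM and large-subunit members 19.5 FPKM. Members specific to mitochondria had a median of 23.01 FPKM, and members with a bacterial counterpart 20.2 FPKM. In CPM, where every library is scaled to the same total and length plays no part, the same genes spanned only 5.62-fold, from 11.1 to 62.3 CPM.

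The FPKM order depends on the transcript length that entered it. For 16 members the length implied by the FPKM was more than 2 times the median GENCODE transcript length, among them Mrpl14 (11.8 times), Mrpl4 (10.3 times), Mrpl17 (9.10 times) and Mrpl15 (3.83 times), which are 4 of the 5 lowest by FPKM. With counts divided by the GENCODE length instead, 5 of the 10 highest and 5 of the 10 lowest members were the same as by FPKM. The position of these genes at the bottom of the order was therefore not kept by both scales. With the GENCODE length the large-subunit median was above the small-subunit median. The median of members with a bacterial counterpart was likewise above that of members specific to mitochondria. The order of these medians therefore depends on the length used. Comparisons of 1 gene between groups, given below in CPM, do not use length.

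The members' RNA was steady across the 15 libraries. The standard deviation of log2 CPM over all libraries had a median of 0.14 in the members (lowest 0.083, highest 0.32), against 0.26 over all 15125 genes tested, 0.20 over the 6099 tested genes in the members' range of abundance and 0.16 over 50 nuclear-encoded oxidative phosphorylation genes. The highest library was a median of 1.42 times the lowest for a member, against 1.95 times over all genes tested. Mrpl45, whose product tethers the ribosome to the inner membrane, had the smallest spread. Mrpl45 was measured at 33.9, 31.9 and 37.0 CPM in JA libraries, 35.6, 33.1 and 32.3 CPM in UA libraries, 32.05, 36.1 and 31.5 CPM in JU libraries, 33.7, 35.6 and 32.1 CPM in vehicle libraries and 35.8, 35.01 and 37.2 CPM in sham libraries. The highest Mrpl45 library was 1.18 times the lowest, and the groups overlapped. Mrps16, Mrpl39 and Mrpl38 followed, with the highest library 1.24, 1.29 and 1.28 times the lowest.

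The 4 members with the largest spread were Mrpl32, Mrpl27, Mrpl35 and Mrpl47, and for the first 3 most of it lay within groups. Mrpl32, whose product is matured by the m-AAA protease before it is assembled, had 16.1, 11.9 and 17.9 CPM in JA libraries, 22.6, 12.4 and 11.7 CPM in UA libraries, 12.6, 12.1 and 12.5 CPM in JU libraries, 13.3, 10.6 and 10.1 CPM in vehicle libraries and 9.95, 13.4 and 16.5 CPM in sham libraries. A single UA library stood highest for Mrpl32 and every group overlapped with another. Mrpl27, a protein of the peptidyl transferase centre in bacteria, had 38.5, 22.6 and 30.8 CPM in JU libraries, 33.4, 34.7 and 40.7 CPM in vehicle libraries and 25.5, 22.04 and 31.3 CPM in sham libraries. For Mrpl35 the sham libraries alone ran from 16.6 to 31.1 CPM. Mrpl47 was at 14.7, 12.95 and 14.8 CPM in JA libraries, 18.2, 13.9 and 15.1 CPM in UA libraries, 9.41, 14.2 and 10.7 CPM in JU libraries, 11.2, 9.91 and 11.4 CPM in vehicle libraries and 11.3, 14.6 and 16.7 CPM in sham libraries. All JA and UA libraries were above all vehicle libraries for Mrpl47, which did not pass the test in either comparison (adjusted p = 0.265 for JA and 0.114 for UA, edgeR).

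**Figure D1:**
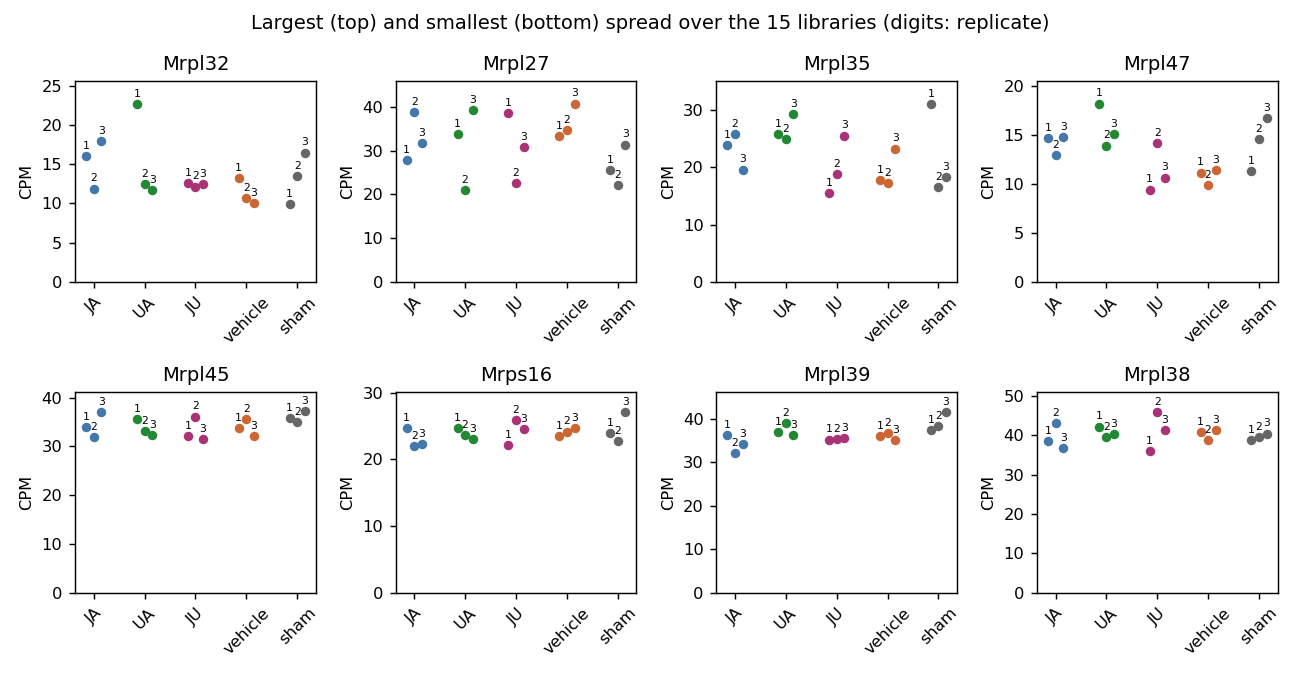
CPM of the 4 members with the largest spread over 15 libraries (top row) and the 4 with the smallest (bottom row), by group, each point a library with its replicate number beside it. The highest library was 2.27 times the lowest for Mrpl32 and 1.18 times for Mrpl45.

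Some facts of the whole data set bear on every comparison. Each library held 18346180 to 20447465 counts, and the members took 0.225% to 0.266% of them, with a lowest count of 174 for any member in any library. JU replicate 1 stood apart from the other libraries. Its 20 markers of reactive microglia and macrophages summed to 35016 CPM, against 1896 and 3430 CPM in the other JU libraries, and its 14 neuronal markers summed to 4677 CPM, against 12074 and 10559 CPM. The microglia and macrophage sum was 6982, 1784 and 1543 CPM in JA libraries, 2004, 3131 and 2083 CPM in UA libraries, 7895, 16355 and 7440 CPM in vehicle libraries and 1554, 1444 and 1587 CPM in sham libraries. The neuronal sum was 9962, 11640 and 12507 CPM in JA libraries, 11487 to 12101 CPM in UA libraries, 7198 to 9987 CPM in vehicle libraries and 11872 to 12082 CPM in sham libraries. In bulk tissue, fewer cells of a type and less RNA per cell cannot be told apart. The 13 protein genes of mitochondrial DNA are not analysed here, because 0 of those looked for by symbol were found in the table. Exons of 19 members, among them Mrpl14, Mrpl18, Mrpl27, Mrpl47 and Mrps34, overlap a gene of the table on the opposite strand, and those of 3 members, Mrps6, Mrps24 and Mrps34, one on the same strand, so their counts are uncertain. The libraries also differed by the GC content of their transcripts. In the lowest decile of genes by GC content the median deviation from the gene's mean over libraries was between -0.20 and -0.09 (log2) in vehicle and JU libraries, and between 0.04 and 0.16 in JA, UA and sham libraries.

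Added up, the 78 members reached 2269, 2377 and 2439 CPM in JA libraries, 2701, 2469 and 2479 CPM in UA libraries, 2239, 2540 and 2421 CPM in JU libraries, 2404, 2392 and 2398 CPM in vehicle libraries and 2497, 2512 and 2658 CPM in sham libraries. The 3 vehicle libraries lay close together and below all 3 sham libraries and all 3 UA libraries, while the JU libraries lay on both sides of them. JU replicate 1, the library with the highest sum of microglia and macrophage markers, had the lowest sum, and 30 of the 78 members had their lowest value there. JA replicate 1, with 6982 CPM of those markers, had nearly as low a sum and held the lowest value of 17 members. Vehicle replicate 2, with 16355 CPM of them, held the lowest value of 2 members. A relation between the markers and the members was not tested. UA replicate 1 and sham replicate 3 each held the highest value of 19 members. The sum of large-subunit members was 2.30 to 2.39 times that of small-subunit members in JA libraries, 2.25 to 2.34 times in UA libraries, 2.26 to 2.31 times in JU libraries, 2.27 to 2.31 times in vehicle libraries and 2.29 to 2.35 times in sham libraries. The groups overlapped in this ratio. The 50 nuclear-encoded oxidative phosphorylation genes summed to 4.08 to 4.36 times the members in JA libraries, 4.23 to 4.31 times in UA libraries, 3.55 to 4.19 times in JU libraries, 3.80 to 4.02 times in vehicle libraries and 4.24 to 4.42 times in sham libraries. All vehicle libraries were below all sham libraries in that ratio.

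**Figure D2:**
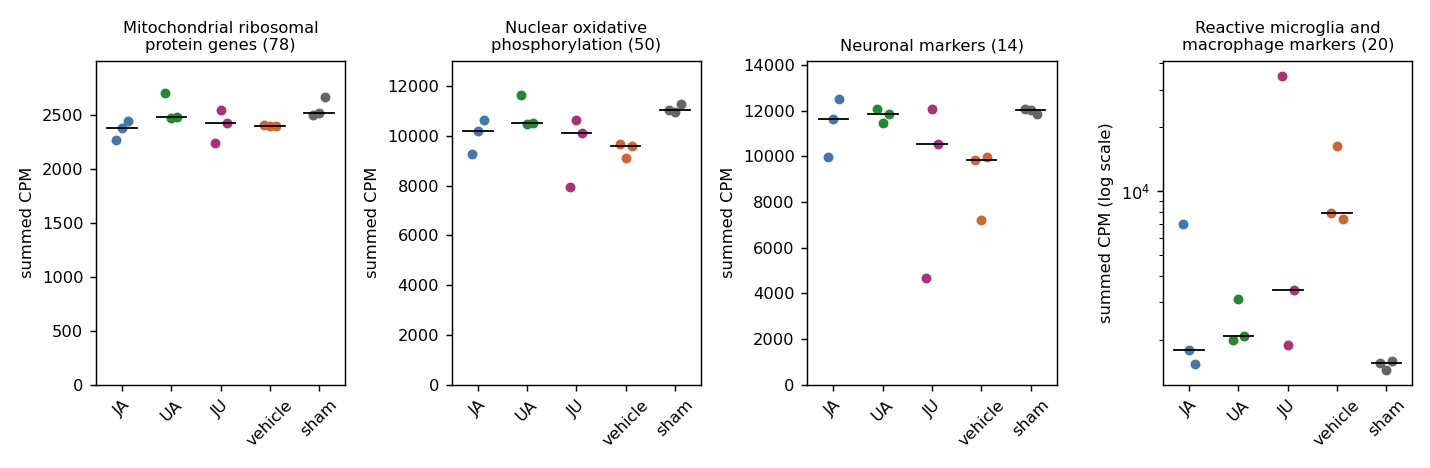
Summed CPM per library (points) and group median (bars) of the 78 mitochondrial ribosomal protein genes, 50 nuclear-encoded oxidative phosphorylation genes, 14 neuronal markers and, on a log axis, 20 markers of reactive microglia and macrophages. The vehicle libraries held 2392 to 2404 CPM of the ribosomal protein genes, below the 2497 to 2658 CPM of the sham libraries.

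**Figure D3:**
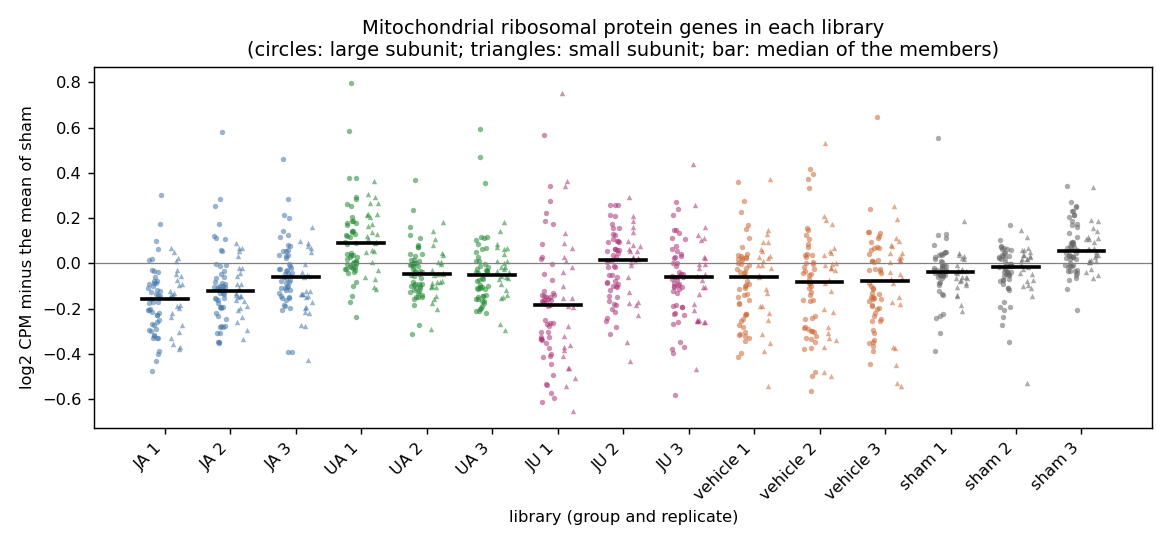
Log2 CPM of each member minus its mean in sham libraries, for every library, with large-subunit members as circles, small-subunit members as triangles and the median of the members as a bar. The medians run from -0.19 in JU replicate 1 to 0.09 in UA replicate 1, and each library holds members on both sides of 0.

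Vehicle against sham sets injured brains without JA, UA or JU against sham brains. 7 members were lower in vehicle libraries and none was higher. Small-subunit members lower in vehicle were Mrps18c, Mrps14 and Mrps35, and large-subunit members were Mrps30, Mrpl3, Mrpl18 and Mrpl50. 4 of these 7 have a bacterial counterpart and 3 (Mrps30, Mrps35 and Mrpl50) are specific to mitochondria. The falls were small, between 0.29 and 0.48 on the log2 scale (Mrpl18 -0.29, Mrps18c -0.48). The test was edgeR's quasi-likelihood test on counts with all 15 libraries in 1 fit and Benjamini-Hochberg adjustment over all 15125 genes tested, with a threshold of 0.05, and all 78 members passed its filter on low counts. The 7 are 8.97% of the members, against 4.24% of all genes tested called lower.

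Mrps18c, one of the S18 paralogs of the small subunit, had 15.9, 17.9 and 15.9 CPM in vehicle libraries, against 22.1, 23.03 and 24.3 CPM in sham libraries. The groups did not overlap, with means of 16.5 ± 1.15 CPM in vehicle libraries and 23.1 ± 1.08 CPM in sham libraries (SD, n = 3 each). The log2 fold change was -0.48 ± 0.08 (SE; adjusted p = 0.0116, edgeR). Its paralogs did not pass the test: Mrps18a, whose product is in the large subunit, had 44.4, 43.9 and 46.2 CPM in vehicle libraries, against 47.5, 46.3 and 48.2 CPM in sham libraries (log2 fold change -0.08 ± 0.10, adjusted p = 0.626, edgeR). Mrps18b, also of the small subunit, had 18.7, 14.9 and 15.5 CPM in vehicle libraries, against 14.2, 14.6 and 14.6 CPM in sham libraries (0.18 ± 0.10, adjusted p = 0.247, edgeR). The difference between paralogs was not tested.

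Mrps30 was at 23.3, 21.1 and 22.8 CPM in vehicle libraries, against 30.1, 30.8 and 32.4 CPM in sham libraries. All vehicle libraries were lower, with a log2 fold change of -0.47 ± 0.10 (adjusted p = 0.0196, edgeR). Mrpl3, whose bacterial counterpart lies close to the peptidyl transferase centre, had 56.0, 49.9 and 53.1 CPM in vehicle libraries, against 70.05, 69.3 and 69.2 CPM in sham libraries. The sham libraries of Mrpl3 were within 1 CPM of each other, and the log2 fold change was -0.39 ± 0.10 (adjusted p = 0.0371, edgeR). Mrps14 had 23.1, 24.8 and 23.4 CPM in vehicle libraries, against 29.5, 28.6 and 32.5 CPM in sham libraries (-0.35 ± 0.08, adjusted p = 0.029, edgeR). Mrps14 is the counterpart of bacterial S14. Mrpl18, counterpart of bacterial L18, which binds the small RNA of the large subunit in bacteria, had 35.2, 34.5 and 36.6 CPM in vehicle libraries, against 42.6, 45.6 and 42.1 CPM in sham libraries (-0.29 ± 0.07, adjusted p = 0.0367, edgeR). The exons of Mrpl18 share 141 bases with Tcp1 on the opposite strand, and the strand setting of the counting is not given in the sources used here, so its value is uncertain. The same holds for Mrps30, which shares 623 exonic bases with B430218F22Rik on the opposite strand, and for Mrps18c and Mrpl3, which share 250 bases with Gm43511 and 248 bases with Gm38077 on the same strand. Mrpl50 had 32.8, 32.1 and 32.1 CPM in vehicle libraries, against 38.3, 38.9 and 45.9 CPM in sham libraries (-0.35 ± 0.09, adjusted p = 0.0458, edgeR). For Mrpl50, sham replicate 3 was well above the other sham libraries. Mrps35 had 16.9, 15.5 and 15.01 CPM in vehicle libraries, against 19.6, 21.05 and 24.6 CPM in sham libraries (-0.46 ± 0.12, adjusted p = 0.0499, edgeR), and lay at the threshold.

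The 78 members lay on both sides of 0. The median log2 fold change of all 78 was -0.08, against 0.005 over all genes tested, and 53 of 78 were negative, the 7 included. The large-subunit median was -0.09 and the small-subunit median -0.03. 19 members had an unadjusted p under 0.05. Every vehicle library was lower than every sham library for 23 members (24.7% of all genes tested) and higher for 3 members (24.5% of all genes tested). Mrps36, the gene whose product is not ribosomal, had 19.4, 18.4 and 19.3 CPM in vehicle libraries, against 21.9, 23.3 and 27.1 CPM in sham libraries (-0.34 ± 0.14, adjusted p = 0.139, edgeR). The vehicle libraries of Mrps36 were all lower, without passing the test, and Mrps36 has processed pseudogenes whose reads could be shared with it.

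The count of 7 was sensitive to single libraries. It was 15 without JU replicate 1, which is in neither group but shares the estimate of the spread, when 33.9% of all genes tested were called in either direction. It was 2, 1 and 1 without vehicle replicates 1, 2 and 3, when 1.90%, 0.544% and 2.06% of all genes tested were called, against 5.02% with all libraries. It was 2, 1 and 0 without sham replicates 1, 2 and 3, when 2.38%, 0.998% and 0% of all genes tested were called. All 7 genes were among the 15. Over 19 alternatives, Mrps18c passed in 17 (adjusted p 6.75e-06 to 0.142) and Mrps30 in 14, whereas Mrps14 passed in 8, Mrpl18 in 7, Mrpl3 in 6, Mrps35 in 4 and Mrpl50 in 3. The microglia and macrophage markers were higher in every vehicle library than in any sham library (7440 to 16355 CPM against 1444 to 1587 CPM). Of these 20, 1, Laptm5, passed the test, while 119 of 15125 genes tested were called higher. All 20 had an unadjusted p under 0.05 (edgeR). The neuronal markers were lower in every vehicle library (7198 to 9987 CPM against 11872 to 12082 CPM). None of 14 passed (0 at an unadjusted p under 0.05), against 4.24% of all genes tested called lower. The part of either in the members' change was not tested.

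**Figure D4:**
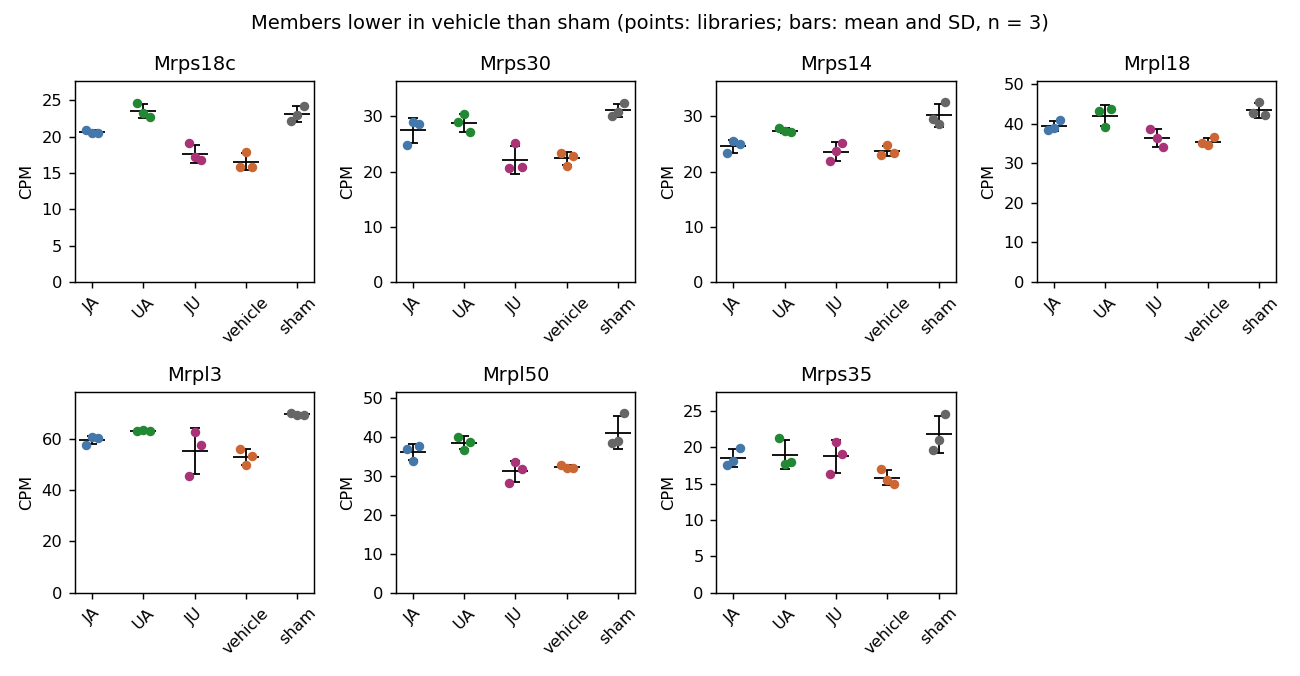
CPM of the 7 members lower in vehicle than in sham libraries, in all 5 groups, with each library as a point and the mean and SD (n = 3) as bars. For Mrps18c the JU libraries lie at 16.7 to 19.1 CPM, next to the vehicle libraries at 15.9 to 17.9 CPM, and the UA libraries at 22.7 to 24.7 CPM, next to the sham libraries.

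GC content moved with these differences. Ranked by transcript GC content, the members were split into 3 classes of 26, and 6 of the 7 members lower in vehicle were in the class of lowest GC content (at most 49.3%), while Mrpl18, at 57.0%, was in the highest. In vehicle against sham the median log2 fold change was -0.24 in the lowest class, -0.05 in the middle class (to 53.8%) and 0.03 in the highest class (to 60.8%). Across the 78 members the fold change and GC content had r = 0.55 (Spearman's rho 0.60), against 0.16 (rho 0.34) across all genes, a description across genes that share libraries and base composition. After a correction of each library for GC content, r across members was -0.05, the median fold change of the members was -0.13, and no member passed the edgeR test (18 at an unadjusted p under 0.05), as was so for all genes. With that correction and without JU replicate 1, 14 members were lower in vehicle, 6 of the 7 among them (27.3% of all genes tested were called).

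**Figure D5:**
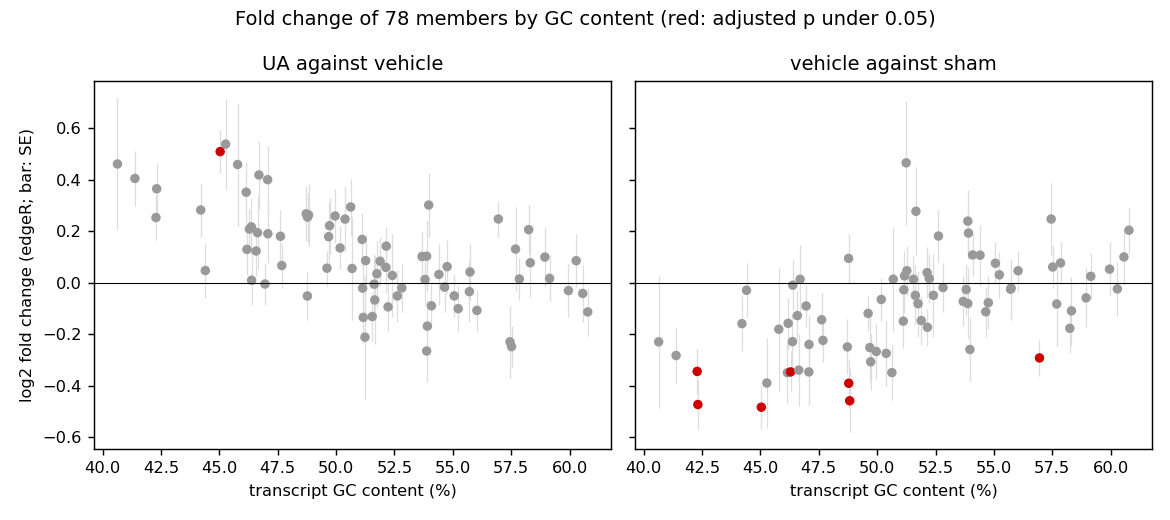
Log2 fold change (points, with SE as bars) against transcript GC content in percent for 78 members, in UA against vehicle (left) and vehicle against sham (right), with members of adjusted p under 0.05 in red. Both panels share the vehicle libraries, and fold changes run down with GC content in the left panel (r = -0.60) and up in the right (r = 0.55).

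JA against vehicle asks whether the treatment labelled JA moved these genes in the injured brain. No member passed the test (edgeR, adjusted p; 13 at an unadjusted p under 0.05), while 1.56% of all genes tested did. DESeq2 called 3 members and 7.80% of the genes to which it gave an adjusted p. The members of smallest p were 2 with lower and 2 with higher values in JA libraries. Mrpl54, a large-subunit protein specific to mitochondria, had 18.9, 20.8 and 21.3 CPM in JA libraries, against 23.2, 28.7 and 26.9 CPM in vehicle libraries (log2 fold change -0.37 ± 0.09, adjusted p = 0.0655, edgeR). Mrps18c had 20.9, 20.6 and 20.5 CPM in JA libraries, against 15.9, 17.9 and 15.9 CPM in vehicle libraries (0.32 ± 0.08, adjusted p = 0.0783, edgeR). For both genes the groups did not overlap. Mrpl52, another mitochondrion-specific protein of the large subunit, had 18.7, 18.1 and 15.1 CPM in JA libraries, against 23.1, 26.1 and 21.8 CPM in vehicle libraries (-0.45 ± 0.14, adjusted p = 0.129, edgeR). Mrps30 had 24.9, 28.9 and 28.7 CPM in JA libraries, against 23.3, 21.1 and 22.8 CPM in vehicle libraries (0.29 ± 0.10, adjusted p = 0.146, edgeR).

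The members' median log2 fold change in JA against vehicle was -0.03, against -0.007 over all genes tested, with 43 of 78 negative. All JA libraries were above all vehicle libraries for 12 members (17.6% of all genes tested) and below for 16 members (15.7% of all genes tested). The 26 members of lowest GC content had a median of 0.09 and the 26 of highest GC content -0.14 (r = -0.66 and rho = -0.67 across members, against -0.22 and -0.34 across all genes). Without JU replicate 1 there were 6 members past the threshold, Mrpl1, Mrps18c and Mrps30 higher and Mrpl52, Mrpl54 and Mrps6 lower, when 19% of all genes tested were called. Mrpl1 had 16.5, 16.3 and 17.8 CPM in JA libraries, against 13.5, 13.2 and 13.9 CPM in vehicle libraries. Mrps6, the counterpart of bacterial S6, had 14.05, 13.7 and 14.3 CPM in JA libraries, against 16.3, 22.5 and 17.8 CPM in vehicle libraries.

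UA against vehicle asks the same of the treatment labelled UA. 1 member, Mrps18c, was higher in UA libraries, which is 1.28% of the members, against 3.12% of all genes tested called higher. Mrps18c had 24.7, 23.2 and 22.7 CPM in UA libraries, against 15.9, 17.9 and 15.9 CPM in vehicle libraries. Every UA library was above every vehicle library, with means of 23.5 ± 1.02 CPM in UA libraries and 16.5 ± 1.15 CPM in vehicle libraries (SD, n = 3 each). The log2 fold change was 0.51 ± 0.08 (adjusted p = 0.0139, edgeR), and Mrps18c passed in 15 of 19 alternatives (adjusted p 1.78e-06 to 0.231). Its paralogs did not pass. Mrps18a had 46.5, 47.0 and 47.0 CPM in UA libraries, against 44.4, 43.9 and 46.2 CPM in vehicle libraries (0.06 ± 0.10, adjusted p = 0.720, edgeR). Mrps18b had 15.04, 15.9 and 16.4 CPM in UA libraries, against 18.7, 14.9 and 15.5 CPM in vehicle libraries (-0.05 ± 0.10, adjusted p = 0.762, edgeR).

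The other 6 members that were lower in vehicle than in sham libraries had UA libraries above all vehicle libraries without passing the test. This comparison shares the vehicle libraries with vehicle against sham, so opposite signs are not independent. Mrps30 had 29.03, 30.4 and 27.1 CPM in UA libraries, against 23.3, 21.1 and 22.8 CPM in vehicle libraries (log2 fold change 0.36 ± 0.10, adjusted p = 0.0613, edgeR). Mrpl18 had 43.3, 39.1 and 43.8 CPM in UA libraries, against 35.2, 34.5 and 36.6 CPM in vehicle libraries (0.25 ± 0.07, adjusted p = 0.0815, edgeR). Mrpl3 had 62.9, 63.6 and 63.1 CPM in UA libraries, against 56.0, 49.9 and 53.1 CPM in vehicle libraries (0.25 ± 0.10, adjusted p = 0.152, edgeR). Mrps14, Mrpl50 and Mrps35 had log2 fold changes of 0.21, 0.25 and 0.26. For Mrps14, the UA libraries at 27.9, 27.3 and 27.2 CPM lay between the vehicle libraries at 23.1 to 24.8 CPM and the sham libraries at 28.6 to 32.5 CPM.

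Over all 78 members the median log2 fold change in UA against vehicle was 0.08, against -0.01 over all genes tested, and 54 were positive. 18 members had an unadjusted p under 0.05. All UA libraries were above all vehicle libraries for 27 members, or 34.6%, against 21.7% of all genes tested, and below for 4 members, or 5.13%, against 22.2% of all genes tested. The median was 0.25 in the class of lowest GC content, 0.06 in the middle class and -0.002 in the highest (r = -0.60 and rho = -0.59 across members, against -0.21 and -0.37 across all genes). After the GC correction the medians of the classes were 0.11, 0.14 and 0.16, and no member passed (16 at an unadjusted p under 0.05). Without JU replicate 1, 15 members were higher and 1 lower, when 28.2% of all genes tested were called. Without UA replicate 1 no member passed, nor without vehicle replicate 1 or vehicle replicate 2, when 0.124%, 0.241% and 0% of all genes tested were called, against 3.47% with all libraries. The microglia and macrophage markers were lower in every UA library than in any vehicle library (2004 to 3131 CPM against 7440 to 16355 CPM). None of 20 passed the test (15 at an unadjusted p under 0.05), while 53 of 15125 genes tested were called lower. The part of these markers in the members' values was not tested.

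JU against vehicle asks the same of JU. No member passed the edgeR test, none had an unadjusted p under 0.05, and DESeq2 called none. This was so for all genes, of which 0% were called, with 300 at an unadjusted p under 0.05. The members of smallest p were Mrps34, Mrps35, Mrpl15 and Mrps26, each with an adjusted p of 1. Mrps34, a mitochondrion-specific protein of the small subunit, had 28.2, 36.8 and 35.2 CPM in JU libraries, against 37.2, 41.7 and 38.6 CPM in vehicle libraries, and JU replicate 1 was the lowest (log2 fold change -0.23 ± 0.11). Exons of Mrps34 overlap those of Nme3 on the same strand and of Mapk8ip3 on the opposite strand, so its value is uncertain. Mrps35 had 16.3, 20.8 and 19.1 CPM in JU libraries, against 16.9, 15.5 and 15.01 CPM in vehicle libraries (0.24 ± 0.12), with overlapping groups. Mrpl15 had 32.8, 34.6 and 40.6 CPM in JU libraries, against 30.3, 30.03 and 33.9 CPM in vehicle libraries (0.20 ± 0.11). Mrps26, another mitochondrion-specific protein of the small subunit, had 33.8, 42.9 and 39.3 CPM in JU libraries, against 41.7, 42.2 and 45.7 CPM in vehicle libraries (-0.16 ± 0.09).

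Mrps18c had 19.1, 17.2 and 16.7 CPM in JU libraries, against 15.9, 17.9 and 15.9 CPM in vehicle libraries, and the groups overlapped. The median of all members was 0.006, against 0.03 over all genes tested. JU libraries were all above vehicle libraries for 3 members (2.35% of all genes tested) and all below for 2 members (1.88% of all genes tested). Without JU replicate 1 the count past the threshold was still 0, with 5 members at an unadjusted p under 0.05. JU libraries varied more than vehicle libraries, with microglia and macrophage markers between 1896 and 35016 CPM and summed members between 2239 and 2540 CPM.

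JU was also set against each single treatment. In JU against JA no member passed the edgeR test (11 at an unadjusted p under 0.05, none by DESeq2), as was so for all genes tested (0%, with 3074 at an unadjusted p under 0.05). Mrpl1 had 12.96, 13.8 and 12.6 CPM in JU libraries, against 16.5, 16.3 and 17.8 CPM in JA libraries, with no overlap (log2 fold change -0.37 ± 0.11, adjusted p = 0.149, edgeR). Mrps30 had 20.6, 25.1 and 20.8 CPM in JU libraries, against 24.9, 28.9 and 28.7 CPM in JA libraries (-0.31 ± 0.10, adjusted p = 0.160, edgeR). Mrps6 had 26.2, 16.3 and 17.4 CPM in JU libraries, against 14.05, 13.7 and 14.3 CPM in JA libraries (0.51 ± 0.17, adjusted p = 0.187, edgeR), with JU replicate 1 far above the rest. Mrpl54 had 24.2, 24.9 and 24.01 CPM in JU libraries, against 18.9, 20.8 and 21.3 CPM in JA libraries (0.26 ± 0.09, adjusted p = 0.195, edgeR). The members' median was 0.03, against 0.02 over all genes tested.

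In JU against UA, 1 member was lower in JU, or 1.28%, against 0.985% of all genes tested called lower. It was again Mrps18c, with 19.1, 17.2 and 16.7 CPM in JU libraries, against 24.7, 23.2 and 22.7 CPM in UA libraries. Every JU library was below every UA library, and the means were 17.7 ± 1.26 CPM in JU libraries and 23.5 ± 1.02 CPM in UA libraries (SD, n = 3 each). The log2 fold change was -0.41 ± 0.08 (adjusted p = 0.0460, edgeR). Mrps18c passed in 8 of 18 alternatives (adjusted p 0.00061 to 0.618). No member passed without any 1 of the UA libraries or without JU replicate 3, and neither did any other gene. Without JU replicate 2, 8 members passed, when 20% of all genes tested were called, and without JU replicate 1 only Mrps18c passed, when 0.623% were called. The members' median was -0.07, against 0.02 over all genes tested, with 53 of 78 negative. Over the 5 groups, Mrps18c was at 20.7 ± 0.24 CPM in JA libraries, 23.5 ± 1.02 CPM in UA libraries, 17.7 ± 1.26 CPM in JU libraries, 16.5 ± 1.15 CPM in vehicle libraries and 23.1 ± 1.08 CPM in sham libraries, so that UA had the highest mean, followed by sham, JA, JU and vehicle. The UA and sham libraries overlapped with each other, as did the JU and vehicle libraries, and the JA libraries lay between the 2 pairs of groups.

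Other genes of the mitochondrial translation system gave the setting. Of all genes tested, 4.24% were called lower in vehicle than in sham libraries, and 3.12% higher in UA than in vehicle libraries. In JU against UA 0.985% were called lower, and in JA against vehicle 1.56% were called in either direction. Of 5 mitochondrial ribosomal protein genes with other symbols, 1 was lower in vehicle than in sham libraries. This was Ptcd3, a pentatricopeptide protein of the small subunit, at 28.7 ± 4.01 CPM in vehicle libraries and 39.8 ± 2.64 CPM in sham libraries (SD, n = 3 each; log2 fold change -0.47 ± 0.11, adjusted p = 0.0362, edgeR). In UA against vehicle Ptcd3 was higher, at 41.9 ± 1.29 CPM in UA libraries and 28.7 ± 4.01 CPM in vehicle libraries (0.55 ± 0.11, adjusted p = 0.0271, edgeR). Of 11 mitochondrial translation factors, 1 was lower in vehicle than in sham libraries, Gfm1 (a mitochondrial elongation factor G; -0.33 ± 0.08, adjusted p = 0.0350, edgeR), and none was called in the other comparisons. Of 23 genes of ribosome assembly and rRNA modification, Fastkd2, an RNA-binding protein needed for the large subunit, and Mterf3 were lower in vehicle than in sham libraries (-0.51 ± 0.10 and -0.50 ± 0.12, adjusted p = 0.0198 and 0.0369, edgeR). Fastkd2 was higher in JA and in UA libraries than in vehicle libraries (0.50 ± 0.10 and 0.58 ± 0.10, adjusted p = 0.0401 and 0.0180, edgeR). It was lower in JU than in UA libraries (-0.49 ± 0.10, adjusted p = 0.0485, edgeR).

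Of 17 mitochondrial aminoacyl-tRNA synthetases, Rars2 and Yars2 were lower in vehicle than in sham libraries (log2 fold changes -0.40 ± 0.10 and -0.48 ± 0.11), as were 4.24% of all genes tested. Yars2 and Nars2 were higher in UA than in vehicle libraries (0.45 ± 0.11 and 0.41 ± 0.10), as were 3.12% of all genes tested. Nars2 was lower in JU than in UA libraries (-0.54 ± 0.10, adjusted p = 0.0446, edgeR), as were 0.985% of all genes tested. Of 15 genes of mitochondrial RNA synthesis and stability, none was called in vehicle against sham (edgeR; 4 at an unadjusted p under 0.05). In that list Pnpt1, the mitochondrial polynucleotide phosphorylase, was higher in JA and in UA libraries than in vehicle libraries (0.48 ± 0.10 and 0.42 ± 0.10). Tfam, which packages mitochondrial DNA, was lower in JU than in UA libraries (-0.42 ± 0.08, adjusted p = 0.0444, edgeR). In JU against UA no gene passed without any 1 of the UA libraries, without JU replicate 3, with RLE factors, without the filter or with GC correction. The calls of Fastkd2, Nars2 and Tfam in that comparison were therefore lost in those fits. In vehicle against sham no gene passed with GC correction or without sham replicate 3. In UA against vehicle none passed with GC correction or without vehicle replicate 2. Calls of other listed genes in those comparisons were lost there as well, those of the oxidative phosphorylation genes below included. None of 9 biogenesis regulators passed the edgeR test in any of the 6 comparisons (3 at an unadjusted p under 0.05 in vehicle against sham).

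The oxidative phosphorylation genes, whose products join the proteins that mitochondrial ribosomes make, had larger differences than the ribosomal protein genes in vehicle against sham. 8 of 50 were lower in vehicle (16%, against 8.97% of the members and 4.24% of all genes tested). Their median log2 fold change was -0.22 (-0.08 in the members), and 47 of 50 were negative. Uqcrb, a subunit of complex III, was at 52.6 ± 0.95 CPM in vehicle libraries and 94.2 ± 7.18 CPM in sham libraries (SD, n = 3 each; -0.84 ± 0.12, adjusted p = 0.00796, edgeR). Cox5a of complex IV (-0.70 ± 0.12), Ndufs1 of complex I (-0.53 ± 0.10) and Atp5j of the ATP synthase (-0.58 ± 0.11) were lower as well. In UA against vehicle 6 of 50 were higher (12%), with a median of 0.19, against 1 of 78 members (1.28%) with a median of 0.08. Of all genes tested, 3.12% were called higher there. In JA against vehicle 1, Uqcrb, was higher (0.55 ± 0.12), and in JU against vehicle none was called (edgeR; 0 at an unadjusted p under 0.05). Of all genes tested, 1.56% and 0% were called in these 2 comparisons. The difference between these lists was not tested.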

How the data were processed

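Messenger RNA of mouse brain was sequenced in 15 libraries, grouped by the sample labels. The deposited table holds whole-number read counts per gene, not normalized, and also the authors' FPKM, as named in its header. Trimmomatic, HISAT2, Cufflinks, DESeq and the build GRCm38 (mm10) are named in the submitters' processing notes. The sources used here do not give the counting tool, its strand setting or the annotation. 1 count column matched no sample label and was not used.

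Members and lists were chosen with earlier results of these data known. Levels within a gene are CPM (every library scaled to the same total) with TMM factors (0.975 to 1.03). 3 counts correspond to 0.147 to 0.164 CPM, which covers counting error only. Differences were tested with edgeR 4.0.16 in R 4.3.3: filterByExpr, 1 robust quasi-likelihood fit of all 15 libraries with a term per group, Benjamini-Hochberg adjustment over 15125 genes, threshold 0.05. Standard errors were taken from the fold change and its F statistic (the ratio of the first to the root of the second). 10 residual degrees of freedom remained and the biological coefficient of variation was 27.1%. The procedure was tested on simulated data with larger fold changes than those of the called members, a single fixed dispersion and no outlying library. That test therefore does not cover changes as small as theirs. Alternatives were DESeq2 1.42.0, limma 3.58.1 (voom, and log2 of FPKM plus 1 or 0.1), other scalings and filters, correction for GC content, a replicate block and leaving out each library. Named members were those called (with none called, the 4 of smallest p), the 5 highest and 5 lowest by FPKM, the 4 of largest and smallest spread, the Mrps18 paralogs and Mrps36, plus called genes of the other lists, up to 4 a list. Other members named for a value were chosen after their values were seen.

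Annotation is GENCODE for GRCm38, which matched 97.9% of genes and all 78 members. Promoter windows are from RefSeq on GRCm38.p6. All pairs of replicates differed by more than sampling noise (lowest ratio of chi-square to degrees of freedom, 5.02). Same-numbered JU and JA libraries deviated together (r = 0.70, 0.39 and 0.42), as did JU replicate 2 with JA replicate 3 (0.59) and JU replicate 3 with JA replicate 2 (0.30), and the labels do not say that a number marks a shared batch. The replicate block left that comparison at 0 members called.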

Additional observations from a re-analysis of the deposited data

Results flagged for a closer look

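Mrps18c differed between the UA and JU groups under the same contrast with vehicle. The test of the difference itself is JU against UA, with a log2 fold change of -0.41 ± 0.08 (edgeR adjusted p = 0.0460), and all 3 JU libraries were below all 3 UA libraries. The value was lower in JU under all 18 alternatives, and it passed the threshold in 8 of them, with adjusted p from 0.00061 to 0.618. With groups of 3, single libraries were not tested as outliers.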

How the results depend on the processing

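Fold changes were followed under the alternatives for the members called in a comparison or, where none was called, the 4 of smallest p. These kept their direction, and 295 of their values stayed on the same side of the threshold, 88 lost it and 7 gained it. The counts below are of members, each with the percent of all genes called in the same fit in brackets. In vehicle against sham they were 2 (3.62%) without TMM factors, 4 (3.31%) without the filter, 11 (25.5%) with only the groups compared, 3 (3.39%) on FPKM plus 1, 2 (3.33%) on FPKM plus 0.1, 2 (2.54%) on FPKM unfiltered, 0 (0%) with GC correction and 14 (27.3%) with GC correction and without JU replicate 1, and 0 to 15 (0% to 33.9%) with a library left out. In UA against vehicle they were 7 (11.6%) by DESeq2, 7 (14.6%) with only the groups compared, 0 (0%) with GC correction, 7 (14%) with that and without JU replicate 1, and 0 to 16 (0% to 28.2%) with a library left out. In JU against UA they were 5 (10.8%) by DESeq2, 0 with RLE factors, 0 without the filter, 0 with only the groups compared and 0 with GC correction with or without JU replicate 1 (0% in each of these), and 0 to 8 (0% to 20%) with a library left out. In JA against vehicle they were 3 (7.80%) by DESeq2, 1 (2.25%) with GC correction and without JU replicate 1, and 0 to 6 (0% to 19%) with a library left out. JU against vehicle and JU against JA stayed at 0.

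With the replicate block, members called were 2 (2.53%) in vehicle against sham, 1 (1.26%) in UA against vehicle and 0 (0%) in JU against UA. Same-numbered vehicle and sham libraries did not deviate together (r = -0.06, 0.02 and -0.03). The same r were -0.53, -0.73 and 0.48 for JU and vehicle libraries and -0.32, -0.31 and 0.33 for JA and vehicle libraries. For UA and vehicle libraries they were 0.03, 0.25 and 0.06, and for JU and UA libraries -0.25, -0.37 and 0.01. The largest r joined libraries of different number, JU replicate 1 and vehicle replicate 2 (0.77). The fit of all 15 libraries did not pair libraries by number.

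The members' median log2 fold change in vehicle against sham moved to -0.028 without TMM factors and on FPKM plus 0.1, -0.027 on FPKM plus 1 with and without the filter, and -0.13 with GC correction. In JA against vehicle it moved to -0.076 without TMM factors and on FPKM plus 0.1. The range of levels between members was 37.2-fold in FPKM, 5.62-fold in CPM and 27.3-fold in CPM per kilobase of GENCODE transcript, the last chosen after seeing the data. The cause of these shifts was not tested, and protein identity among the Mrps18 paralogs was not run. With 3 libraries a group and 1 shared estimate of spread, the counts moved with single libraries.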
